A study of Schizosaccharomyces pombe with 97 samples.

Results

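RNA of *asp1Δ* cells kept for 1 week without nitrogen (T1W) was compared with RNA of the wild type *smt0* at the same time, to see which parts of the quiescence expression profile were missing without the kinase Asp1. The comparison rests on 6 libraries, 3 of *asp1Δ* and 3 of *smt0*, chosen by strain and time point from the 81 RNA-seq libraries of the series, which holds 97 samples in all. The *asp1Δ* strain, with the genotype *smt0 asp1Δ kanMX4*, came from a cross of a library deletion strain with a *mat1-M smt0* strain and was selected to need no added amino acid or base. The control was prototrophic *smt0*, so both strains carry the *smt0* deletion that stops mating-type switching. Each culture was grown at 30 °C in minimal glutamate medium with nitrogen, sampled as T0, washed, and kept in the same medium without nitrogen up to T1D (1 day), T1W and T2W (2 weeks). Each genotype is a single strain, so a change elsewhere in the genome of the cross product cannot be told apart from the loss of *asp1*. The 3 libraries of a group are biological triplicates.

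Asp1 is a bifunctional enzyme, with a kinase domain that makes inositol pyrophosphates and a phosphatase domain that removes them. Inositol pyrophosphates signal the phosphate state of the cell, and in growing fission yeast they act on the phosphate acquisition genes *pho1*, *pho84* and *tgp1*, whose transcription is held down by noncoding RNAs from the same loci. Loss of nitrogen arrests the fission yeast cell cycle, and in a culture of a single mating type, where no cell can mate, the arrest is held as reversible quiescence. The resting cell recycles protein and nucleobases, lowers ribosome production, and turns on the mating programme through the transcription factor Ste11, which binds the TR box.

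The deleted gene was measured first. *asp1* (III:571470-574562, minus strand, in the ASM294v2 build of the count table) had 18, 55 and 37 reads in *asp1Δ*, against 1173, 838 and 1726 reads in *smt0* at T1W. As normalised counts (CPM, with TMM scaling on the gene reads) this was 8.74, 11.6 and 13.0 in *asp1Δ* against 253, 256 and 268 in *smt0*. All *asp1Δ* libraries lay far below all *smt0* libraries. The log2 fold change was -4.52 ± 0.22 (SE; edgeR quasi-likelihood test, Benjamini-Hochberg adjusted p = 1.2e-24), and *asp1* was also lower at T0, by -3.83.

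Gene reads per library were between 2388723 and 5378528 in *asp1Δ* and between 3271040 and 6000875 in *smt0* at T1W, within the range of 1980570 to 18992894 over the series. The spiked-in ERCC RNAs took 289922, 423530 and 1369521 reads in *asp1Δ* and 119884, 174057 and 1551852 reads in *smt0*, so that the third library of each strain stood apart. With libraries scaled on ERCC reads the median gene was lower in *asp1Δ* by -1.54 on the log2 scale, against -0.00 (rounded) with the gene-count scaling used here. Per library, the log2 of gene reads over ERCC size was 2.66 ± 1.27 in *asp1Δ* and 3.77 ± 1.63 in *smt0* (SD, n = 3 each), a difference of -1.11 (exact permutation test, two-sided p = 0.4, where 0.1 is the smallest possible). In libraries A, B and C it was 3.02, 3.71 and 1.26 in *asp1Δ* against 5.14, 4.20 and 1.97 in *smt0*. It was lower in *asp1Δ* for each letter, and lowest in the third library of each strain. The test did not use the letters. Fewer cells in a sample and less RNA per cell cannot be told apart from such bulk counts, and the flow cytometry of viability in the study was not used here. All values below are relative to the other genes of a library unless ERCC scaling is named, and a gene at 0 on this scale is 1.53 lower, in the median, on the ERCC scale.

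Of 6608 genes tested, 1794 (27.1%) were higher and 1861 (28.2%) lower in *asp1Δ* than in *smt0* at T1W. Among the 5083 protein-coding genes tested 20.8% were higher and 35.2% lower, and the shares of the lists of protein-coding genes below are to be read against these. When the scaling was taken on protein-coding genes alone, 2154 were higher and 1420 lower, which moved the share of higher calls to 60.3%, from 49.1%. With ERCC scaling 206 (3.12%) were higher and 3309 (50.1%) lower: all 1861 lower calls were still called lower, and 205 of the 1794 higher calls still higher. ERCC scaling moved the log2 fold changes down, by -1.79 to -0.99 from the 5th to the 95th percentile of genes. That the lower calls stayed is therefore no check of them. All 3 *asp1Δ* libraries lay above all 3 *smt0* libraries in 2142 genes (32.4%) and below them in 2254 (34.1%), against which the separations given below are to be read. On the gene-count scale far fewer genes differed earlier: 99 (1.5%) were higher and 114 (1.73%) lower at T0, and 410 (6.2%) were higher and 381 (5.77%) lower at T1D. These counts leave out any shift of all genes. At T1D the ERCC RNAs took 217676, 179715 and 214866 reads in *asp1Δ* against 12886, 36243 and 24256 reads in *smt0*. Gene reads there were 5162263, 3585590 and 3445428 in *asp1Δ* against 8657896, 10244986 and 3487066 in *smt0*. The difference at T1W minus that at T0 was itself called in 1271 genes (19.2%) upwards and 1411 (21.4%) downwards. At T2W, in other libraries, 1776 (26.9%) were higher and 1701 (25.7%) lower. Of the genes higher at T1W, 1177 were also higher at T2W, which is 65.6% of the T1W list and 66.3% of the T2W list. Of those lower at T1W, 1301 were also lower at T2W, or 69.9% and 76.5% of the lists.

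Promoters of mating, ribosomal protein, histone and phosphate genes are shown first, since a sequence element is known upstream of some genes of each group. The windows are from RefSeq on the ASM294v3 build, end upstream of the annotated mRNA start, and have the matches in capitals. The MAP kinase gene *spk1*, among the most reduced mating genes, holds 3 copies of the TR box TTCTTTGTT, searched on both strands, in 200 bases before its start (chrI:3001519-3001718, minus strand). The others shown for this element are *ste11* (chrII:3983213-3983292, plus strand) and the M-factor gene *mfm1* (chrI:4916900-4916979, plus strand), with 80 bases each.
spk1: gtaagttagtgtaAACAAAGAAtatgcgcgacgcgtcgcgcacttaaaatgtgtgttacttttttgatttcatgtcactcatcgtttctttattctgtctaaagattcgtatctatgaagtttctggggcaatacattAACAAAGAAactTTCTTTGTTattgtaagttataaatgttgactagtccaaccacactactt
ste11: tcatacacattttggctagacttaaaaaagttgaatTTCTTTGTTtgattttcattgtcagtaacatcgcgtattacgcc
mfm1: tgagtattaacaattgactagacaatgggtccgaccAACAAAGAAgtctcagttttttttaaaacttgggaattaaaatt
The nearest TR box lay 41 bases before the start in *spk1*, 118 in *ste11* and 70 in *mfm1*. Over the 300 bases before the start, 8 of 20 pheromone and mating genes (40%) held a TR box, against 82 of all 4439 windows (1.85%). Of these 8 genes 6 were lower in *asp1Δ* at T1W and 0 higher. Over all 82 windows with the box 30 genes were lower and 17 higher, with a median log2 fold change of -0.23. This was near all protein-coding genes, of which 35.2% were lower and 20.8% higher, with a median of -0.18.

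Ribosomal protein genes carry the HomolD box CAGTCACA, shown here for *rps27* (chrII:517230-517309, plus strand) and *rpl3702* (chrIII:1847883-1847962, minus strand), where it stands on the other strand.
rps27: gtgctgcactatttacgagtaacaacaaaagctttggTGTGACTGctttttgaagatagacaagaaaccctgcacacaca
rpl3702: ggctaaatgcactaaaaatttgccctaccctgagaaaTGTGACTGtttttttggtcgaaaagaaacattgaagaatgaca
It lay 46 and 43 bases before the start. It was found in 76 of 125 ribosomal protein windows (60.8%), against 121 of all 4439 (2.73%). Of these 76 genes 75 were higher in *asp1Δ*, as were 136 of the 141 tested genes of the whole list. Over all 121 windows with the box 86 genes were higher and 10 lower. Histone genes carry the AACCCT box, here in the H4 genes *hhf2* (chrII:1365024-1365103, minus strand) and *hhf1* (chrI:4699616-4699695, minus strand).
hhf2: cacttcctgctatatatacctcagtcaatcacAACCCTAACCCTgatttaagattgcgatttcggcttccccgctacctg
hhf1: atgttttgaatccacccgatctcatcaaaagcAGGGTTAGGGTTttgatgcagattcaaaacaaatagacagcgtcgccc
Both show 2 copies side by side. The box was present in 8 of 10 histone windows (80%), all 8 of genes higher in *asp1Δ*, against 431 of 4439 (9.71%) in all. Of those 431 genes 108 were higher and 154 lower, with a median log2 fold change of -0.14. Over all protein-coding genes 20.8% were higher and 35.2% lower, with a median of -0.18. The box was also in 39 of 125 ribosomal protein windows (31.2%), all 39 of genes higher in *asp1Δ*. The factor Pho7 binds TCG, any 4 bases, TT, any base and AA upstream of phosphate genes, shown for *tgp1* (chrII:352559-352638, minus strand) and *pho1* (chrII:4447316-4447395, plus strand).
tgp1: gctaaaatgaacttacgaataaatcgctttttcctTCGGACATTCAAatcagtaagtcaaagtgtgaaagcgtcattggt
pho1: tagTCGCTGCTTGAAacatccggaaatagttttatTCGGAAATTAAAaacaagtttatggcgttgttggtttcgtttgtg
Of 12 phosphate windows only those of *tgp1* and *pho1* held this site, against 313 of 4439 (7.05%). Of these 2 genes 1 was higher and 1 lower. The letters GATAAG were also searched, and were in 5 of 21 nitrogen windows (23.8%), against 526 of 4439 (11.8%). Of these 5 genes 2 were higher and 1 lower. In protein-coding genes of the raised profile, defined below, GATAAG was in 79 of 392 windows (20.2%). The windows of *rps27*, *hhf2*, *hhf1*, *tgp1* and *pho1* overlap annotated noncoding RNAs. A match is a description of the letters and says nothing of binding.

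Genes of the mating programme were more often lower than higher in *asp1Δ*. Of 27 pheromone and mating genes tested, 15 (55.6%) were lower and 2 higher, with a median log2 fold change of -1.04, against 35.2% lower and a median of -0.18 over all protein-coding genes. Their summed level was 1845, 1706 and 1533 CPM in *asp1Δ*, against 6416, 3492 and 5087 CPM in *smt0*. The groups did not overlap, and *smt0* itself varied, with its first library highest and its second lowest. At T0 the sums were 1417 to 1713 CPM in *asp1Δ* and 1446 to 1753 CPM in *smt0*, and at T1D 9068 to 11230 CPM in *asp1Δ* and 11158 to 12005 CPM in *smt0*. The mating genes were thus on at T1D in both strains, and at T1W the *asp1Δ* sum was back in its T0 range or just above it. At T2W the sums overlapped, with 4725 to 6850 CPM in *asp1Δ* and 5225 to 6074 CPM in *smt0*, and the median log2 fold change was 0.20.

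*spk1*, the MAP kinase of the pheromone cascade, had 22.3, 18.9 and 18.6 CPM in *asp1Δ*, against 175, 86.3 and 155 CPM in *smt0*. This was 14.4% of the *smt0* mean (log2 fold change -2.81 ± 0.33, edgeR adjusted p = 2.0e-10). *ste6*, the exchange factor that loads Ras1 with GTP, had 8.74, 9.47 and 7.03 CPM in *asp1Δ* against 108, 38.4 and 68.6 CPM in *smt0*, a log2 fold change of -3.08 ± 0.44. *mam2*, the receptor for P-factor, had 10.7, 9.26 and 4.22 CPM in *asp1Δ* against 120, 23.2 and 54.7 CPM in *smt0*, and was lower by -3.05 ± 0.62, or by -2.23 without the first *smt0* library. None of the libraries overlapped for these 3 genes. At T2W *mam2* was higher in *asp1Δ*, at 279 CPM against 62.7 CPM in *smt0* (log2 fold change 2.15, adjusted p = 0.00064), while *spk1* and *ste6* differed by 0.45 and 0.25 and were not called. *ste11*, the transcription factor at the head of the programme and named after its values were seen, had 104, 89.7 and 64.7 CPM in *asp1Δ*, against 534, 215 and 326 CPM in *smt0* (-2.06 ± 0.30).

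The M-factor gene *mfm1* had 75.8, 49.1 and 50.3 CPM in *asp1Δ* against 307, 53.4 and 249 CPM in *smt0*. It was lower by -1.81 ± 0.54 (adjusted p = 0.0038), and without the first *smt0* library by -1.32, with an adjusted p of 0.053. The transporter gene *mam1*, which exports M-factor, fell by 1.41 on the log2 scale. Of 6 markers of M cells 4 were lower and 0 higher, and of 3 markers of P cells 1 was lower and 0 higher. In 3 of the 6 M markers all *asp1Δ* libraries lay below all *smt0* libraries. The call of *mfm3*, 1 of the 4, was lost in many of the alternative settings. The M median of -1.28 was -0.80 without the first *smt0* library. Summed M markers were at 297, 274 and 243 CPM in *asp1Δ* against 1136, 345 and 721 CPM in *smt0*, and the P markers *map1*, *map2* and *map3* at 42.3, 43.8 and 35.2 CPM in *asp1Δ* against 66.5, 36.0 and 53.8 CPM in *smt0*. M cell markers were thus read in every T1W library of both strains.

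**Figure D1:**
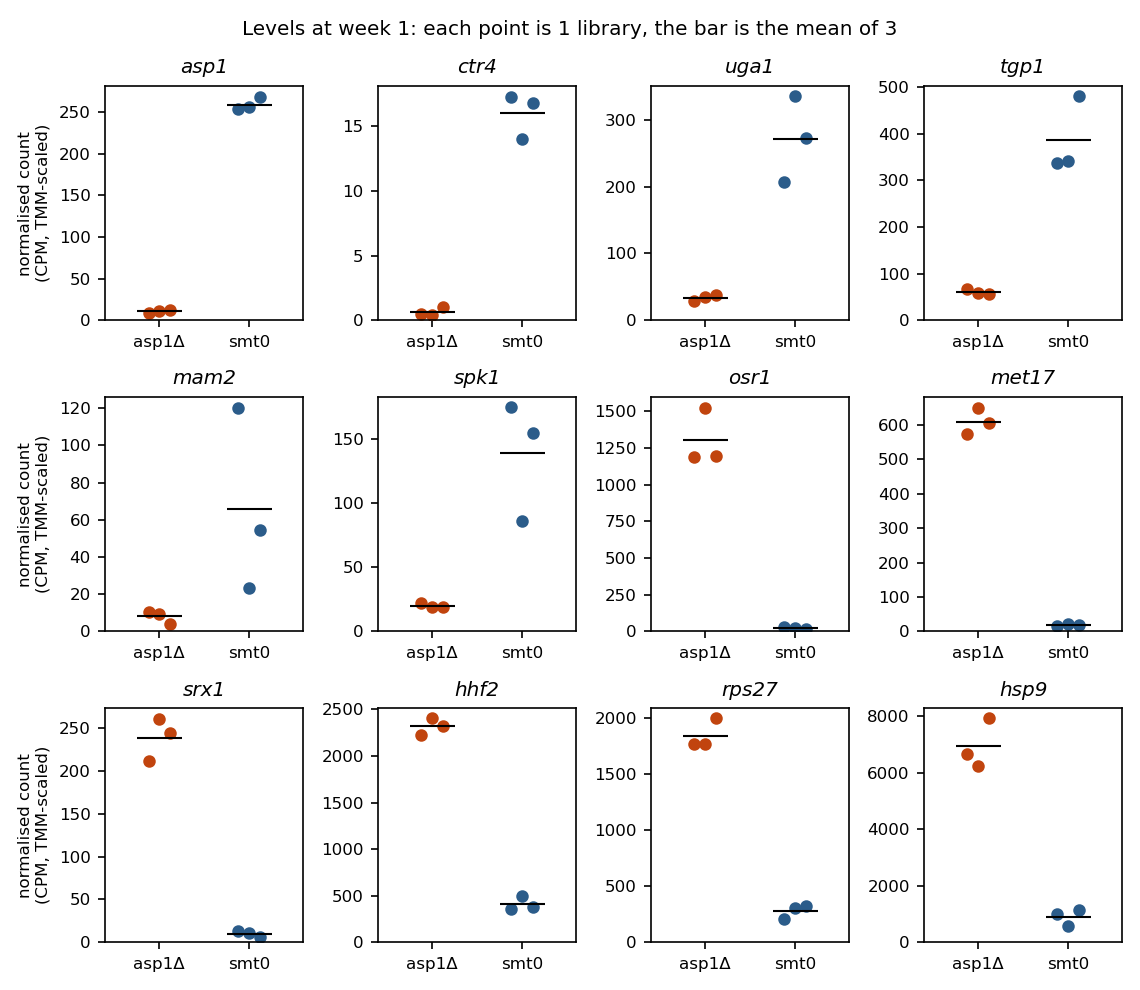
Levels of 12 genes at T1W in CPM, with TMM scaling on gene counts. Each point is 1 library, *asp1Δ* left and *smt0* right, and the bar is the mean of 3. The first 6 genes (*asp1*, *ctr4*, *uga1*, *tgp1*, *mam2*, *spk1*) are lower and the other 6 (*osr1*, *met17*, *srx1*, *hhf2*, *rps27*, *hsp9*) higher in *asp1Δ*, with no overlap in any of them.

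Of 23 genes for the use of other nitrogen sources 11 (47.8%) were lower and 4 (17.4%) higher, with a median of -0.53 that was -0.27 once a trend with gene length, described at the end, was taken out. *uga1*, a GABA transaminase, had 29.1, 35.6 and 37.6 CPM in *asp1Δ* against 207, 335 and 272 CPM in *smt0*. In *smt0* it rose with starvation (log2 change from T0 3.12), whereas in *asp1Δ* the change from T0 was 0.10, and the strain difference was -2.98 ± 0.34 (adjusted p = 9.0e-11). It was already lower at T1D, by -2.07. The copper amine oxidase gene *cao1* was at 669, 658 and 571 CPM in *asp1Δ* against 3063, 3546 and 3643 CPM in *smt0*, and the xanthine dioxygenase gene *xan1* at 179, 172 and 174 CPM in *asp1Δ* against 684, 779 and 1137 CPM in *smt0*. Both rose in each strain and ended 5.40-fold and 4.96-fold lower in *asp1Δ*. The ammonium transporter gene *amt3* went the other way, with 155, 179 and 118 CPM in *asp1Δ* against 5.18, 10.7 and 9.33 CPM in *smt0* (log2 fold change 4.18 ± 0.46). Among amino acid and peptide transporters 4 of 19 were higher and 4 lower, and *mfs1*, of the major facilitator family, fell to 158 CPM in *asp1Δ* against 606 CPM in *smt0*.

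Phosphate genes were compared because of what Asp1 makes. Of 12 tested, *asp1* included, 7 (58.3%) were lower and 2 higher (median -0.67, or -0.32 with the length trend taken out). *tgp1*, which imports glycerophosphodiesters, had 68.0, 59.8 and 55.9 CPM in *asp1Δ* against 337, 342 and 481 CPM in *smt0*, with a log2 fold change of -2.66 ± 0.30 (adjusted p = 1.1e-10). At T0 it was not called (0.66), and in *asp1Δ* it changed by 0.50 up to T1W, against 3.83 in *smt0*. *pho84*, the phosphate transporter gene, had 507, 500 and 397 CPM in *asp1Δ* against 1037, 1971 and 1552 CPM in *smt0*. Its deficit of -1.70 at T1W was smaller than that of -3.77 at T0 (difference 2.07, adjusted p = 0.00034). The acid phosphatase gene *pho1*, named after its values were seen, was lower by -3.14 at T0 and at T1W stood at 418, 429 and 345 CPM in *asp1Δ* against 352, 245 and 271 CPM in *smt0*. That difference of 0.46 (adjusted p = 0.049) turned to -1.16 with ERCC scaling and was lost when any 1 of 4 libraries (*smt0* B or C, *asp1Δ* A or B) was left out (adjusted p up to 0.15). From T0 to T1W *pho1* rose by 1.75 in *asp1Δ* and fell by 1.85 in *smt0*, and the change of the strain difference was 3.60 (adjusted p = 1.4e-14).

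Copper uptake held the largest fall among the named protein-coding genes. *ctr4*, a subunit of the copper transporter, had 1, 2 and 3 reads in *asp1Δ* against 80, 46 and 108 reads in *smt0*, or 0.654 ± 0.349 CPM in *asp1Δ* against 16.0 ± 1.75 CPM in *smt0* (SD, n = 3 each). In growing *asp1Δ* cells it was at 87.2 CPM against 45.6 CPM in *smt0*, a difference that was not called. The log2 fold change at T1W was -4.64 ± 0.68 (adjusted p = 6.7e-08), and the change of that difference since T0 was -5.58. Of 20 iron and copper uptake genes 5 were higher and 3 lower, with a median of 0.22 that turned to -1.22 with ERCC scaling and was 0.47 with the length trend taken out, 0.40 without the third *smt0* library and 0.37 without the third *asp1Δ* library. The haem uptake gene *shu1* was at 13.6, 8.84 and 11.2 CPM in *asp1Δ* against 0, 0.915 and 0.622 CPM in *smt0*.

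The other protein-coding genes with the largest falls were the amino acid permease gene *SPAC1039.01* (76.7, 70.3 and 53.1 CPM in *asp1Δ* against 1510, 596 and 566 CPM in *smt0*), its neighbour *SPAC1039.02* (185 to 215 CPM in *asp1Δ* against 1686 to 2560 CPM in *smt0*), the carboxylesterase family gene *SPCC417.12* (2.81 to 5.83 CPM in *asp1Δ* against 28.3 to 41.4 CPM in *smt0*) and the peptide N-glycanase gene *SPBC1709.14* (1.94 to 7.03 CPM in *asp1Δ* against 24.7 to 31.1 CPM in *smt0*). The transcription factor gene *SPAC2H10.01*, at 15.6 to 19.4 CPM in *asp1Δ* against 62.8 to 235 CPM in *smt0*, was already lower at T0 by -2.70 and rose with starvation in both strains. For it the change of the difference was not called (adjusted p = 0.67), nor was that of *SPAC1039.02* (0.057).

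The fall of ribosomal protein genes, part of the lowered profile, was smaller in *asp1Δ*. In *smt0* the 141 genes fell with starvation by a median of -2.03 on the log2 scale up to T1W, against -0.46 in *asp1Δ*. Of the 141, 136 were higher in *asp1Δ* at T1W and 1 lower, and that 1, *rpp1*, is caught by its name and encodes a subunit of RNase P. Their summed level was 76683, 78323 and 86585 CPM in *asp1Δ* against 20051, 26620 and 27367 CPM in *smt0*. At T0 the sums were 104258 to 111695 CPM in *asp1Δ* and 88305 to 109033 CPM in *smt0*, and at T1D 36405 to 37460 CPM in *asp1Δ* and 26731 to 42453 CPM in *smt0*. The fall was thus made in both strains at T1D, and at T1W the level in *asp1Δ* was higher than at T1D. The median difference was 1.66 at T1W and 1.91 at T2W. With ERCC scaling the median was 0.19, with 1 gene called higher and 3 lower, so the higher level held relative to the other transcripts of the library.

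*rps27* had 1763, 1761 and 1996 CPM in *asp1Δ* against 207, 310 and 321 CPM in *smt0*, a log2 fold change of 2.72 ± 0.24 (adjusted p = 1.6e-14). *rpl4302* had 591, 636 and 751 CPM in *asp1Δ* against 72.3, 100.3 and 114 CPM in *smt0*, and *rpl3702* had 105, 122 and 117 CPM in *asp1Δ* against 10.4, 19.2 and 19.4 CPM in *smt0*. These were the largest rises of the family, 6.59-fold to 7.03-fold, and the libraries of the strains were far apart. Several of these proteins are made from paired genes of near-identical sequence, so the split of reads within a pair is uncertain. Of 95 genes for ribosome assembly 35 (36.8%) were lower and 11 (11.6%) higher (median -0.30), a lower share near the 35.2% of all protein-coding genes. The lower ones included *utp14*, at 123, 116 and 140 CPM in *asp1Δ* against 293, 295 and 317 CPM in *smt0*.

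**Figure D2:**
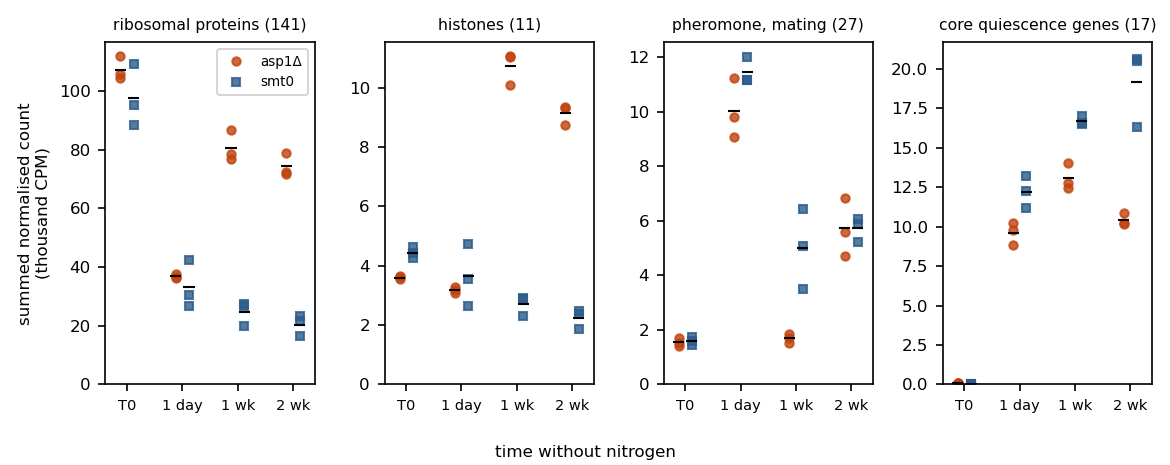
Summed level of 4 gene lists, in CPM divided by 1000, at T0, T1D, T1W and T2W. Circles are *asp1Δ* and squares *smt0* libraries, and the dash is the mean of 3. Ribosomal protein and histone sums of *asp1Δ* lie above those of *smt0* at T1W and T2W, the mating sum lies below at T1W alone, and the sum of the core quiescence genes lies below from T1D on.

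Histone genes were higher in *asp1Δ* at T1W in 10 of 11 cases, with a median of 1.85 and a sum of 10111, 11025 and 11070 CPM in *asp1Δ* against 2313, 2895 and 2913 CPM in *smt0*. The *asp1Δ* sums were also above its own T0 range of 3544 to 3647 CPM. *hhf2*, an H4 gene, had 2225, 2411 and 2319 CPM in *asp1Δ* against 356, 495 and 378 CPM in *smt0* (log2 fold change 2.50 ± 0.25, adjusted p = 2.3e-12). *hht2*, the divergent H3 gene beside it whose annotation overlaps by a few bases, had 2963, 3327 and 3663 CPM in *asp1Δ* against 386, 648 and 769 CPM in *smt0* (2.46 ± 0.86, adjusted p = 0.013, and 0.051 without the first *smt0* library). *hhf1* was 4.99-fold higher, at 588, 564 and 609 CPM in *asp1Δ* against 101, 115 and 137 CPM in *smt0*. With ERCC scaling the list median was 0.28 and none of these 3 was called. Of 40 genes of replication and the MBF factor 25 (62.5%) were lower and 3 higher (median -0.58). *mcm6*, of the replicative helicase, had 61.2, 36.4 and 36.2 CPM in *asp1Δ* against 153, 158 and 159 CPM in *smt0*, and *pol1*, of DNA polymerase alpha, had 70.4, 67.4 and 67.1 CPM in *asp1Δ* against 254, 224 and 229 CPM in *smt0*.

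Of 34 genes for defence against oxidants 16 (47.1%) were higher in *asp1Δ*, 1 was lower and 17 were not called, against 20.8% higher over all protein-coding genes. The median was 0.66, or 0.32 with the length trend taken out. With ERCC scaling it was -0.89, with 2 genes higher and 9 lower, against -1.72 for all protein-coding genes. Their sum was 14845, 15821 and 16166 CPM in *asp1Δ* against 7536, 7552 and 7842 CPM in *smt0*. *srx1*, the sulfiredoxin that repairs peroxiredoxin, had 211, 260 and 244 CPM in *asp1Δ* against 13.2, 10.7 and 6.38 CPM in *smt0* (log2 fold change 4.59 ± 0.45, adjusted p = 1.8e-12, and 2.81 with ERCC scaling). It was lower than in *smt0* at T0, by -1.61, and higher at T1D, by 1.36. The glutathione S-transferase gene *gst2* had 2823, 3181 and 3084 CPM in *asp1Δ* against 516, 337 and 299 CPM in *smt0*, and the quinone reductase gene *obr1* had 1692, 1984 and 1765 CPM in *asp1Δ* against 353, 233 and 230 CPM in *smt0*.

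Of 28 heat shock genes 5 (17.9%) were higher and 10 (35.7%) lower, shares near those of all protein-coding genes, with a median of -0.28 that was -0.15 without the third *smt0* library and -0.14 with the length trend taken out. Single members went both ways. *hsp9* had 6656, 6239 and 7926 CPM in *asp1Δ* against 1012, 575 and 1147 CPM in *smt0*, and the small chaperone gene *hsp16* had 357, 310 and 283 CPM in *asp1Δ* against 36.3, 51.2 and 68.4 CPM in *smt0*. The general chaperone gene *hsp90* was lower, with 594, 517 and 496 CPM in *asp1Δ* against 1140, 1850 and 1743 CPM in *smt0* (-1.56 ± 0.29).

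Among single genes the largest rises were in genes that were nearly silent in *smt0* at T1W. The arylsulfatase gene *SPBPB10D8.02c* had 171, 452 and 282 reads in *asp1Δ* against 1, 0 and 1 reads in *smt0*, a pooled ratio of 672 with a 95% counting interval of 186 to 5560. It lies near an end of chromosome II and differed at T0 too (log2 fold change 3.89). The aldo/keto reductase gene *SPAC750.01* had 278, 730 and 428 reads in *asp1Δ* against 3, 0 and 2 reads in *smt0*, and the uncharacterised gene *SPBPB2B2.08* had 421, 1329 and 764 reads in *asp1Δ* against 3, 2 and 9 reads in *smt0*. *SPAC750.01* was already higher at T0 (log2 fold change 3.82) and T1D (7.03). *SPBPB2B2.08* was higher at T1D (3.45) and not called at T0 (0.90). All 3 genes are subtelomeric. Within 200 kb of the ends of chromosomes I and II 129 of 337 tested genes (38.3%) were higher and 59 (17.5%) lower, with a median of 0.53. With only genes of a mean of at least 10 reads at T1W kept, that median was 0.26. Over all genes tested 27.1% were higher and 28.2% lower. With ERCC scaling the subtelomeric median was -1.05, with 47 higher and 121 lower. For the 246 protein-coding ones the median was 0.18, with 85 (34.6%) higher and 55 (22.4%) lower, against 20.8% and 35.2% of all protein-coding genes. By chromosome arm the medians of all subtelomeric genes were 0.78 and 0.45 at the left and right end of chromosome I, and 0.70 and 0.29 at the left and right end of chromosome II.

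Outside that list, the dehydrogenase gene *osr1* had 1189, 1522 and 1193 CPM in *asp1Δ* against 31.3, 20.4 and 16.8 CPM in *smt0* (log2 fold change 5.84 ± 0.44, adjusted p = 1.4e-16). The homocysteine synthase gene *met17* had 573, 649 and 604 CPM in *asp1Δ* against 15.3, 22.3 and 18.3 CPM in *smt0*. In *smt0* *met17* fell by 4.54 on the log2 scale from T0 to T1W, while in *asp1Δ* it differed from T0 by 0.30. The methyltransferase gene *SPCC70.08c*, within 200 kb of the right end of chromosome III, which the list did not cover, had 456, 472 and 431 CPM in *asp1Δ* against 16.2, 13.7 and 14.3 CPM in *smt0*. *osr1*, *met17* and *SPCC70.08c* were also higher at T1D, by 1.45, 1.88 and 1.62.

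Most genes of the wild type profile were called in the same direction in *asp1Δ*. The profile was defined in *smt0* at T1D and T2W, whose libraries the T1W comparison does not use: 806 genes rose at least 2-fold at both times and 704 fell at least 2-fold at both. At any fold, 27.1% of the genes tested were called higher and 26.9% lower at T1D, and 31% higher and 32.6% lower at T2W. At T1W itself 28.8% were higher and 32.3% lower than at T0 in *asp1Δ*, against 29.3% and 30.5% in *smt0*. Of the 806, 615 also rose in *asp1Δ* from T0 to T1W and 14 fell, with a median change of 1.68 in *asp1Δ* against 1.94 in *smt0*. The *smt0* change shares its T0 libraries with the choice of these genes, which were at 0.19 in the strain comparison at T0, so the sizes of the changes from T0 are a description. In the direct comparison 171 were higher and 283 (35.1%) lower in *asp1Δ*, with a median of -0.23, or -0.15, -0.15, -0.13 and -0.13 without *smt0* A, *smt0* C, *asp1Δ* A and *asp1Δ* B. This was near the 28.2% lower of all genes. With ERCC scaling 466 were lower and 4 higher (median -1.80). The 523 protein-coding members were lower in 248 cases and higher in 74, with a median of -0.51, whereas of the 283 noncoding members 97 were higher and 35 lower, with a median of 0.51. Among all protein-coding genes tested 1791 of 5083 (35.2%) were lower, so the members stood at 47.4% against 35.2%. These members are long, with a median of 2093 bp against 1800 bp. With the length trend taken out they stood at 41.9% lower against 32.3%, with a median of -0.39.

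Of the 704 lowered genes 492 also fell in *asp1Δ*, with a median change of -1.09 in *asp1Δ* against -1.86 in *smt0*. In the direct comparison 393 (55.8%) were higher and 51 lower, with a median of 0.75, against 27.1% higher over all genes, and with ERCC scaling 45 were higher and 143 lower (median -0.73). Without the ribosomal protein genes 275 of 585 were higher and 51 lower, with a median of 0.53. With the length trend taken out 48.6% of the 704 were higher (median 0.59), against 23.2% of all genes. Without the ribosomal protein genes 41.0% were then higher (median 0.40).

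Genes with no call of a response in *asp1Δ* were counted apart. Of the 806 raised genes 137 (17.0%) had no rise called in *asp1Δ* and were lower at T1W, of which 122 were protein-coding. They held 6 of the 11 raised mating genes (*gpa1*, *mam2*, *mei2*, *spk1*, *ste11* and *ste6*), 3 of the 12 raised nitrogen genes (*car1*, *uga1* and *ure2*), and *tgp1* and *mfs1*. Of the 704 lowered genes 182 (25.9%) had no fall called in *asp1Δ* and were higher at T1W. They held 55 of the 119 lowered ribosomal protein genes, 2 of 3 histone genes (*hhf1* and *hta1*), 3 of 7 oxidative stress genes (*gpx1*, *sod1* and *srx1*), *hsp16* and *pho1*. The protein-coding genes that fell most in *smt0* differed most: the 34 with a mean change under -3 at T1D and T2W had a median strain difference of 2.80 at T1W, the 177 between -3 and -2 of 1.41, and the 678 between -2 and -1 of 0.33. At the raised end the medians were -0.55 for the 524 genes between 1 and 2, and 0.03 for the 39 genes over 4.

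**Figure D3:**
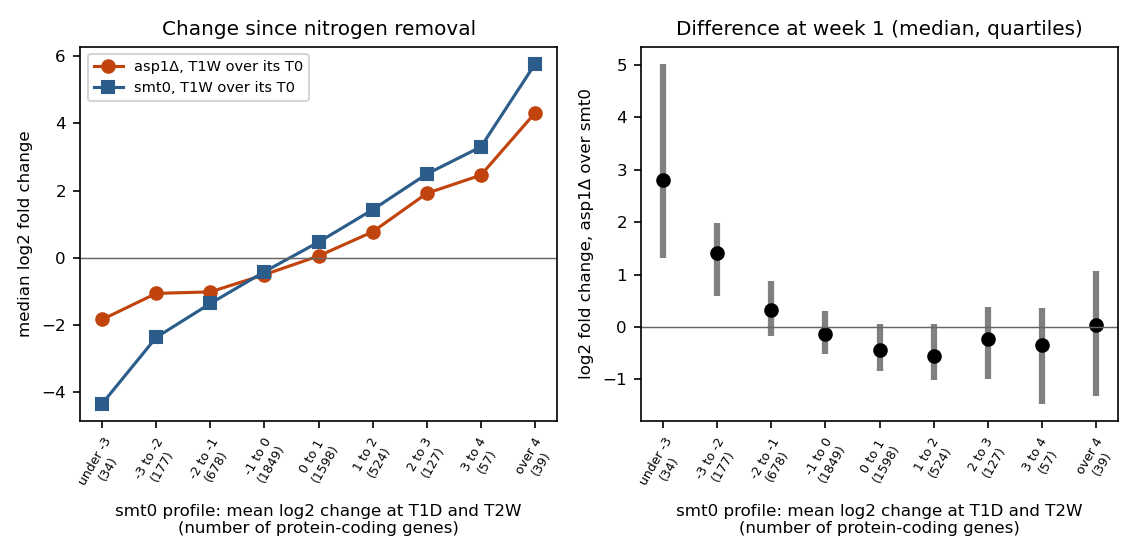
Protein-coding genes in bins of their *smt0* response (mean log2 change at T1D and T2W). Left, median log2 change from T0 to T1W in *asp1Δ* (circles) and *smt0* (squares), where the *smt0* change shares its T0 libraries with the bins. Right, median (point) and quartiles (bar) of the difference of *asp1Δ* from *smt0* at T1W, which is 2.80 in the bin under -3 and 0.03 in the bin over 4.

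The core quiescence genes of the study rose in both strains. Of 17 core quiescence genes listed by the study, which were chosen on these *smt0* samples and are no independent evidence, all 17 rose in *asp1Δ* up to T1W, by a median of 7.94 against 7.61 in *smt0*. At T1W 4 were higher and 0 lower in *asp1Δ*, with a median of 0.26 that became -1.42 with ERCC scaling, 1.05 without the first *smt0* library and 0.11 with the length trend taken out. Their sum was nevertheless lower, at 12477, 12789 and 14028 CPM in *asp1Δ* against 16558, 17001 and 16495 CPM in *smt0*. Of that sum *SPAC869.04*, a formamidase-like gene, had 3367, 3491 and 3460 CPM in *asp1Δ* against 7122, 8650 and 8104 CPM in *smt0* (-1.21 ± 0.63, adjusted p = 0.096). *SPAC869.03c*, its neighbour, had 1034, 1174 and 937 CPM in *asp1Δ* against 2456, 3365 and 2591 CPM in *smt0* (adjusted p = 0.079). Neither was called, although their libraries did not overlap, and a fit to the T1W libraries alone called both. The Con-6 family gene *SPAC869.09* was higher, with 570, 458 and 821 CPM in *asp1Δ* against 79.2, 22.9 and 51.2 CPM in *smt0* (3.58 ± 0.79), and so was *SPBPB21E7.02c*, with 50.9 ± 7.39 CPM in *asp1Δ* against 8.42 ± 1.72 CPM in *smt0* (SD, n = 3 each). The septin gene *spn6* (50.9 CPM in *asp1Δ* against 136 CPM in *smt0*) and the autophagy kinase gene *atg1* (128 CPM in *asp1Δ* against 283 CPM in *smt0*) rose in both strains and reached a lower level in *asp1Δ*. Of 32 genes of autophagy and vacuolar proteases 12 (37.5%) were lower and 6 (18.8%) higher, close to the shares of all protein-coding genes, with a median of -0.11.

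**Figure D4:**
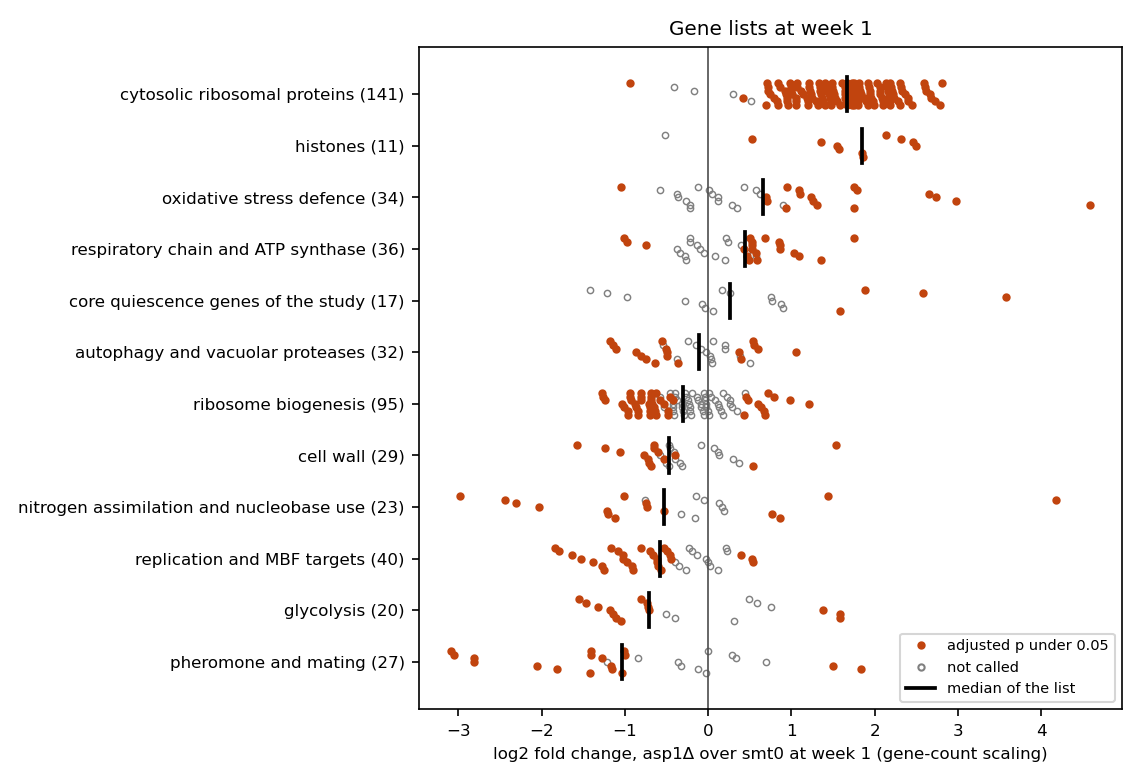
Log2 fold change of *asp1Δ* over *smt0* at T1W for the tested members of 12 gene lists, with the number of genes in brackets. Filled points passed an adjusted p of 0.05, open points did not, and the bar is the median of the list, from 1.85 for histones to -1.04 for pheromone and mating genes.

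Of 20 genes listed under glycolysis 11 (55%) were lower and 3 higher (median -0.72), or 10 and 3 of 19 without *pck1*, which in fission yeast is protein kinase C. The pyruvate decarboxylase gene *pdc201* was higher, with 2856, 3105 and 3718 CPM in *asp1Δ* against 1337, 797 and 1106 CPM in *smt0*, a log2 fold change of 1.58 that was -0.16 with ERCC scaling. Of 29 cell wall genes 12 (41.4%) were lower and 2 higher, with a median of -0.47 that was -0.07, with 6 lower and 4 higher, once the length trend was taken out. The lower ones included the glucanase gene *exg1* at 122, 114 and 87.9 CPM in *asp1Δ* against 482, 238 and 243 CPM in *smt0*. Of 36 nuclear genes for the respiratory chain and ATP synthase 17 were higher and 3 lower, with a median of 0.45 that was -1.05 with ERCC scaling and -0.03 with the length trend taken out. Of 56 genes of mitochondrial ribosomal proteins 10 were higher and 9 lower (median 0.01), and of 35 of the proteasome 8 were higher and 5 lower. Of 174 genes named for meiosis and sporulation 36 were higher and 39 lower (median 0.01), and of 8 hexose transporter and 5 Hsp31 genes 1 each was higher and 0 lower.

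Of the 36 genes of the mitochondrial genome, mostly tRNA genes, 19 were higher and 0 lower, with a median of 1.41 that was -0.16 with ERCC scaling. The genome's share of all gene reads was nevertheless 2.07% ± 0.350 in *asp1Δ* and 2.28% ± 1.05 in *smt0* (SD, n = 3 each; exact permutation test, two-sided p = 0.8). *var1* had 130, 139 and 5.27 CPM in *asp1Δ* against 7.12, 10.4 and 3.58 CPM in *smt0*, so its rise was not shown by the third *asp1Δ* library beyond the *smt0* range. Of 8 Tf2 retrotransposons tested 4 were higher and 0 lower, with a median of 1.44, which was -0.13 with ERCC scaling. *Tf2-11* had 157, 186 and 149 CPM in *asp1Δ* against 12.7, 9.15 and 7.62 CPM in *smt0*, and its near-identical copies make the assignment of reads to it uncertain.

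Noncoding transcripts were more often called higher, as classes, than all genes tested, of which 27.1% were higher and 28.2% lower. Of 611 antisense RNAs 296 (48.4%) were higher and 34 lower (median 1.04, or -0.48 with ERCC scaling). Of 669 other noncoding RNAs 270 (40.4%) were higher and 35 lower (0.91, or -0.56 with ERCC scaling). Of 125 tRNA genes 102 (81.6%) were higher and 0 lower, with a median of 2.92 at T1W and already 2.26 at T1D. With ERCC scaling the T1W median was 1.91, with 44 higher and 0 lower. Of 40 genes of small nuclear and nucleolar RNAs 28 (70%) were higher and 1 lower, and of 43 rRNA genes 24 (55.8%) were higher and 0 lower. With ERCC scaling the medians were 0.31, with 10 higher and 3 lower, and 0.35, with 4 higher and 1 lower. Whether the counting used strand is not given in the sources used here, so an antisense RNA and its overlapping gene cannot be told apart. In shares of gene reads, protein-coding genes took 65.8% ± 1.55 in *asp1Δ* and 77.4% ± 4.42 in *smt0*, other noncoding RNAs 8.29% ± 0.410 in *asp1Δ* and 3.81% ± 0.376 in *smt0*, and small nuclear and nucleolar RNAs 10.2% ± 0.990 in *asp1Δ* and 4.57% ± 1.11 in *smt0* (SD, n = 3 each). For each the exact permutation p was 0.1, the smallest possible with 3 against 3, and 0.16 adjusted over 8 classes. Antisense RNAs took 0.935% ± 0.0253 in *asp1Δ* and 0.835% ± 0.105 in *smt0* (exact permutation p = 0.3).

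Single noncoding RNAs moved both ways. *bst1-antisense-1* had 88.9, 97.7 and 111 CPM in *asp1Δ* against 1.94, 0 and 0.466 CPM in *smt0*. *SPNCRNA.137*, *SPNCRNA.1039* and *SPNCRNA.383* had 67, 62 and 53 reads over the *asp1Δ* libraries and 0 in *smt0*, at least 33.2-fold, 30.7-fold and 26.2-fold more against a floor of 3 reads over the group. *cta3-antisense-1* was lower, with 1.46, 4.84 and 1.76 CPM in *asp1Δ* against 53.5, 53.1 and 61.1 CPM in *smt0*, and *SPNCRNA.737* had 14.1, 14.3 and 14.4 CPM in *asp1Δ* against 94.5, 52.2 and 68.0 CPM in *smt0*.

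Gene length moved with the strain difference at T1W. Among protein-coding genes the median was 0.54 for summed exon lengths under 500 bp, 0.06 between 1000 and 1500 bp and -0.79 over 5000 bp, where 76.1% were lower. At T0 the same bins lay between -0.03 and 0.03, at T1D between -0.16 and 0.08, and at T2W between 0.38 and -0.74. Without the ribosomal protein genes the T1W median was 0.34 under 500 bp. Between 500 and 1000 bp it was 0.23, against 0.42 with them. Ribosomal protein genes are short, with a median of 676 bp against 1800 bp for all protein-coding genes, and histone genes have 870 bp. With the length trend taken out of the fold changes, the ribosomal protein median was 1.02 with 112 genes higher and 2 lower, the histone median 1.25, the mating median -0.95, and 1534 genes (23.2%) were higher and 1742 (26.4%) lower in all. The trend was fitted over protein-coding genes with the ribosomal protein genes among them. With it taken out, the other protein-coding genes stood at -0.48 under 500 bp and -0.30 between 500 and 1000 bp. In the longer bins they stood between -0.14 and -0.19, so the removal set other short genes below long ones. The part of RNA length or quality in the remaining differences was not tested.

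**Figure D5:**
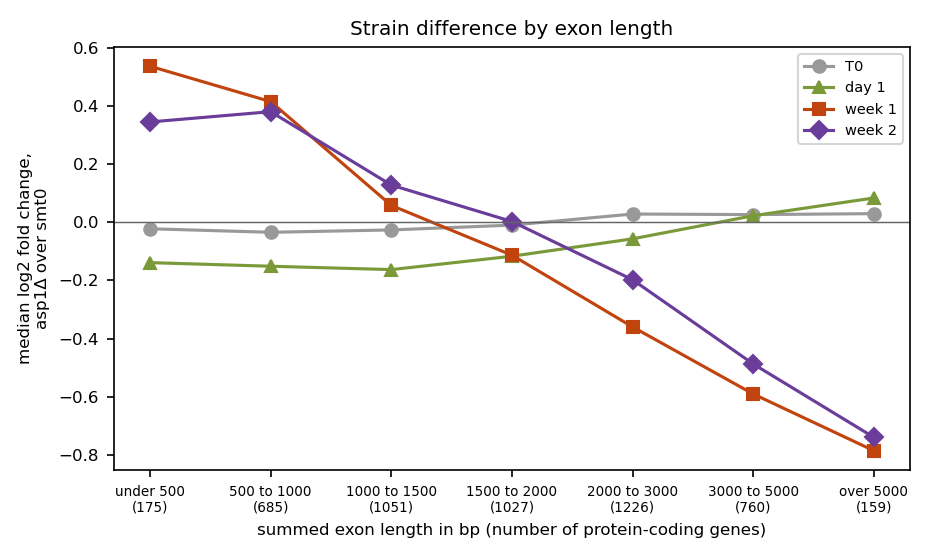
Median log2 fold change of *asp1Δ* over *smt0* for protein-coding genes in bins of summed exon length, at T0, T1D, T1W and T2W. The T1W line runs down from 0.54 under 500 bp to -0.79 over 5000 bp, and the T0 line stays between -0.03 and 0.03.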

How the data were processed

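RNA-seq was done on 81 libraries in 27 groups of 3, of which this report compares *asp1Δ* and *smt0* at T1W and uses their T0, T1D and T2W libraries for reference. ChIP-seq samples of the series were not used here. The authors made the libraries from rRNA-depleted RNA with ERCC RNAs added by number of vegetative cells, demultiplexed with bcl2fastq 2.20.0.422, aligned with STAR 2.7.9a to ASM294v2 and the ERCC sequences, and counted reads per gene with featureCounts 1.5.1. The deposited values are whole-number read counts with no normalization, for 7014 genes, and a like table of ERCC counts. All of the table's columns matched a sample (0 did not).

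The counts went into edgeR 4.0.16 under R 4.3.3 (quasi-likelihood test, group means of all 27 groups, no block), on genes above 1 CPM in at least 3 libraries, which left 6608 genes and set 406 aside, 175 of them with no read. Libraries were scaled by TMM on the gene counts, since the question was put on that scale, and the ERCC scaling that the study used is an alternative. Benjamini-Hochberg adjustment was made within each comparison, with a threshold of 0.05. The SE is the fold change over the root of F. With counts from 2388723 gene reads per T1W library upwards, 3 reads over a group were taken as the floor. Intervals and floors cover counting error only. In data simulated on the same 6608 genes, the test recovered 75% of 100 genes changed by 1 log2 unit and 97% of 100 changed by 2, with 14 false calls. The counts were drawn with the fitted spread, and the changed genes had a mean of at least 10 reads. Changes went evenly up and down and were far fewer than the calls in the real data. The choice of scaling was thus not put to the test, and the figures hold for that setting alone.

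The members and the 26 lists were chosen with earlier results of these data known. Named genes are *asp1*, then genes called with at least 50 reads, separate libraries and the same sign with ERCC scaling (the 10 protein-coding and 4 noncoding with the largest change each way), up to 3 members of each list with the largest called change, all members of lists of 8 or fewer, and, of the genes raised in *smt0*, the 8 strongest that were lower in *asp1Δ* and the 4 strongest not called. Since ERCC scaling moved most genes down, the rule of the same sign bound mainly genes that rose. Not every gene so chosen is named. A list is described by its counts and median, with no test.

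Alternatives were ERCC scaling, median-of-ratios factors, TMM on protein-coding genes, DESeq2 1.42.0, no filter, a mean of at least 10 reads, fits to fewer groups, a likelihood ratio test, a replicate block, each T1W library left out, and, added after seeing the data, removal of a trend with gene length. Promoters were taken from the RefSeq annotation of ASM294v3 for 4439 mRNAs with an annotated 5′ leader, 4433 of them tested. Shares were compared by exact permutation in SciPy 1.17.1 and plots drawn with matplotlib 3.10.9.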

Additional observations from a re-analysis of the deposited data

Results flagged for a closer look

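Of 76 named genes whose values were compared across settings, 57 had a strain effect at T1W that differed from that at T0, by a test of the difference itself (edgeR, adjusted p under 0.05 over all 6608 genes), against 1271 genes (19.2%) upwards and 1411 (21.4%) downwards of all tested. Since most of them were named for a large difference at T1W, their number is no result. For *SPBPB10D8.02c*, *SPNCRNA.137* and *SPNCRNA.1039*, with at most 3 reads in *smt0*, the fitted size is not given. The values are the T1W minus the T0 log2 fold change of *asp1Δ* over *smt0* for the other 54 genes. This was -5.58 for the copper transporter gene *ctr4*. In mating genes it was -3.28 for *spk1*, -2.90 for *ste6*, -2.78 for *mam2*, -2.08 for *ste11*, -1.39 for *map1* and -1.20 for *mam1*. In genes of nitrogen use it was -3.02 for *uga1*, -2.39 for *xan1* and -2.23 for *cao1*, and 3.07 for *amt3*. In transport genes it was -3.07 for *SPAC1039.01* and -1.90 for *mfs1*. Phosphate genes went apart, with -3.32 for *tgp1*, 2.07 for *pho84* and 3.60 for *pho1*. Replication genes had -2.04 (*pol1*), -1.85 (*mcm6*) and -1.77 (*rfc1*), and genes of ribosome assembly -1.63 (*utp14*) and -1.37 (*utp22*). The enzyme and cell structure genes had -3.22 (*SPCC417.12*), -3.18 (*SPBC1709.14*), -1.95 (*spn6*), -1.92 (*exg1*), -1.66 (*pck1*) and -1.25 (*atg1*). *SPAC11D3.03c* had -3.21. Among ribosomal protein genes it was 2.94 for *rpl4302*, 2.73 for *rps27* and 2.46 for *rpl3702*, and among histone genes 2.83 for *hhf1* and 2.45 for *hhf2*. Stress genes had 6.19 (*srx1*), 4.72 (*hsp16*), 3.50 (*hsp9*), 2.62 (*gst2*) and 2.52 (*obr1*), but -1.51 for *hsp90*. Subtelomeric and other single genes had 7.10 (*SPBPB2B2.08*), 4.81 (*SPAC750.01*), 5.53 (*SPCC70.08c*), 5.36 (*osr1*), 4.84 (*met17*), 3.34 (*isp3*) and 2.65 (*SPBC460.05*). In genes of mitochondrial function it was 4.64 for *var1* and 1.58 for *atp14*, and 3.71 for the retrotransposon *Tf2-11*. Noncoding RNAs had -5.00 (*cta3-antisense-1*), -2.76 (*SPNCRNA.737*), -2.40 (*SPNCRNA.1510*) and -2.31 (*SPNCRNA.1452*). It was 8.19 for *SPAC3G6.07*, with 309 reads over the *asp1Δ* and 9 over the *smt0* libraries at T1W. There the pooled ratio was 51.0, with a 95% counting interval of 26.5 to 113, and the mean at T0 was 0.228 CPM in *asp1Δ* and 1.47 CPM in *smt0*. The groups of 3 libraries are too small for a test of single outlying libraries.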

How the results depend on the processing

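The scaling was the choice that mattered most. With ERCC scaling 206 genes were higher and 3309 lower, and the wild type profile held 20 raised and 1412 lowered genes. List medians then turned for the mitochondrial genome (-0.16), the respiratory chain (-1.05), oxidative stress (-0.89), iron and copper uptake (-1.22), Tf2 (-0.13), core quiescence genes (-1.42), subtelomeric genes (-1.05), genes lowered in *smt0* (-0.73), antisense RNAs (-0.48) and other noncoding RNAs (-0.56), as did *pdc201* (-0.16), *map2* (-0.68), *SPBPB21E7.11* (-0.15) and *pho1* (-1.16). This follows from the shift of all genes by ERCC scaling. It also ended the calls of 11 named genes, *rps27*, *rpl4302*, *hhf2*, *hht2*, *hhf1*, *hsp9*, *hsp16*, *gst2* and *obr1* among them. With the length trend removed the medians of the respiratory chain (-0.027) and of amino acid transporters (0.062) turned. *map3*, near 0 and not called, was at 0.18 with that setting, 0.049 with TMM on protein-coding genes and 0.0020 with DESeq2, for which the cause was not tested. Leaving out each T1W library gave 1659 to 1805 higher and 1461 to 1645 lower genes and 2349 to 2506 with a different effect from T0. For *mfm2* it gave -1.15 to 0.34, the highest without the first *smt0* library, and for *map3* -0.22 to 0.086. The call of *mfm3* (adjusted p of 0.046 with all libraries) was lost without any 1 library other than *smt0* B (up to 0.41, without *smt0* A), and those of *mfm1* and *hht2* were lost without *smt0* A. For *mfm3* the edgeR adjusted p was also 0.073 with median-of-ratios factors and 0.094 with TMM on protein-coding genes. It was 0.062 with no filter and 0.061 with a mean of at least 10 reads, and the DESeq2 adjusted p was 0.058. On the gene-count scale same-lettered libraries did not deviate together (r of -0.008, -0.022 and 0.18 over 6608 genes), so the letters were not used as pairs. On the ERCC scale the third library of each strain had the fewest gene reads over ERCC size. A replicate block gave 1779 higher and 1886 lower genes, and 2059 and 1971 in the T1W libraries alone. Among the named genes the block ended the call of *mfm3*. Fits to the T1W libraries alone, with and without the block, called *map2*, *SPAC869.04* and *SPAC869.03c*. Without the *hht2* and *ies2* deletion libraries *mfm3* was not called either, and *SPAC869.04* and *SPAC869.03c* were. Depth limits genes with few reads, for which a bound or a counting interval is given.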
